A study of Homo sapiens with 4 samples.

Results

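The genes described are 10 parts of the cell cycle engine: the D-type cyclins CCND1, CCND2 and CCND3, the E-type cyclins CCNE1 and CCNE2, the cyclins CCNA2 and CCNB1, and the cyclin-dependent kinases CDK2, CDK4 and CDK6. The rule takes them by symbol and uses no measured value, but the set was put together with earlier results of these data known. All 10 have a row among the 32673 genes of the expression table and were among the 15519 genes tested. The libraries come from TF1, a human erythroleukaemia line that the labels name a CML line, carrying the BCR-ABL oncogene of chronic myeloid leukaemia. Imatinib-sensitive TF1-BA cells (2 libraries) were compared with imatinib-resistant TF1-BAR cells (2 libraries), whose library titles say vector and which were raised from the sensitive cells by long culture in imatinib, an inhibitor of the BCR-ABL kinase. Both lines grew in RPMI-1640 with 10% serum and, per the labels, 2 ng/ml GM-CSF, for which the study's methods state another amount, and 2 µM imatinib was added to the culture of the TF1-BAR cells only. Each replicate was 10000000 cells. Whether the drug was still present when the RNA was taken is not given in the sources used here, so acquired resistance and drug exposure cannot be told apart, and each line is 1 cell population. Nothing says that the replicates came from separate cultures, so the p-values measure only the spread between these libraries, which may be technical.

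Cyclins are made and destroyed in turn as a cell passes from one division to the next, and each activates a kinase partner that is inactive alone. D-type cyclins join CDK4 and CDK6 and phosphorylate the RB protein, which frees E2F transcription factors to switch on genes for DNA synthesis. E-type cyclins and cyclin A then act with CDK2 during entry into and passage through DNA replication, and cyclin B with CDK1 drives mitosis. BCR-ABL signalling is known to raise cyclin D2 in blood cells.

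The cyclins that moved split by type, and the kinases did not pass the test. Of the 10 genes, 2 rose in the TF1-BAR cells, both D-type cyclins (CCND1 1.505-fold and CCND2 1.43-fold in mean FPKM, a fragment count scaled to transcript length and library size), and 3 fell, the cyclins of DNA replication and mitosis CCNE2, CCNA2 and CCNB1. CCND3, CCNE1, CDK2, CDK4 and CDK6 did not pass. Calls are at an adjusted p under 0.05 from limma on log2(FPKM + 0.5) over all 15519 genes, and every log2 fold change is TF1-BAR minus TF1-BA on that scale, which understates the change of low genes. Among all genes tested, 26.9% passed, 16.3% higher and 10.5% lower in TF1-BAR cells, so that 5 of 10, 2 and 3 are read against those shares. None of the 10 also reached an absolute log2 fold change of 1, the further threshold that 4.75% of all genes passed. The values of the 2 lines did not overlap for 7 of the 10 genes, all of them cyclins, against 69.3% of all genes. These are mixed populations, in which fewer cells in a phase of the cycle and less RNA per cell cannot be told apart.

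**Figure D1:**
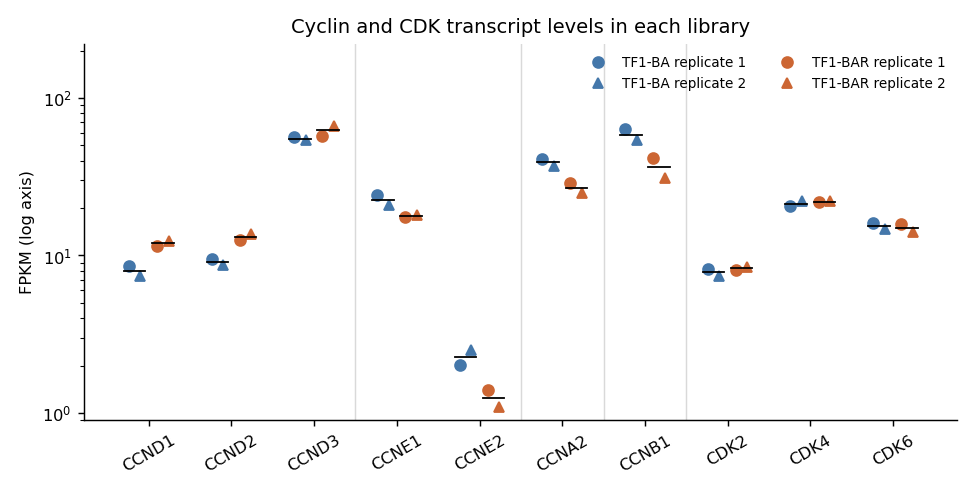
FPKM of the 10 genes in each of the 4 libraries, with the mean of each cell line, on a log axis. The TF1-BAR values of CCND1 (11.5 and 12.4) and CCND2 (12.5 and 13.7) lie above both TF1-BA values, those of CCNE2, CCNA2 and CCNB1 lie below, and those of CDK2, CDK4 and CDK6 overlap.

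Promoters of CCNA2 and CCNB1 are shown because both genes fell, with 1 promoter of CCND3, which did not pass, beside them. CCND1 and CCND2, which rose, and CCNE2, which also fell, had no entry in the table used. Sequences are from RefSeq on GRCh38.p14, the 250 bases before a start, 5′ to 3′ on the strand of the gene, where 6 of the 10 genes had an entry and 9 starts were searched. Capitals mark CCAAT on either strand (ATTGG on the reverse) and, in CCNA2, the hexamer CTTGAA that is 1 of 2 forms searched of the cell cycle homology region, an element of many mitotic genes. The other form was TTTGAA, and the E2F letters searched were TTTCCCGC, TTTCGCGC, TTTGCCGC and TTTGGCGC, each on both strands.
CCNA2, chr4:121823884-121824133, minus strand: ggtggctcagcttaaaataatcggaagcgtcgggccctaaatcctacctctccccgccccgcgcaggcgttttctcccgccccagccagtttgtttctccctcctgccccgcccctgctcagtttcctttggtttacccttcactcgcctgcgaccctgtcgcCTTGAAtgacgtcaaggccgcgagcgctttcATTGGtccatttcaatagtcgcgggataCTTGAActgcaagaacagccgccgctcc
CCNB1, chr5:69166900-69167149, plus strand: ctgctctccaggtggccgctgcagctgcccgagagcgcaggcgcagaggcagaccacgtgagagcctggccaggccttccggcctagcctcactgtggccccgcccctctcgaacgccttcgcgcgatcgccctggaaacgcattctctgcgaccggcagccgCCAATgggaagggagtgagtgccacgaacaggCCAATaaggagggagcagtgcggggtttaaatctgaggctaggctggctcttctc
CCND3, chr6:41941809-41942058, minus strand: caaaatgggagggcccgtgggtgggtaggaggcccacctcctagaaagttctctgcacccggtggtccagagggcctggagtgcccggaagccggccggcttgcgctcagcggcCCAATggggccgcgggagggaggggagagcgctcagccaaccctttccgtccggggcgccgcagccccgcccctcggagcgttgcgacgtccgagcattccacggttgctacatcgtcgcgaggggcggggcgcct
CCNA2 held 1 CCAAT, at bases 56 to 52 before the start on the reverse strand, and 2 CTTGAA, at 87 to 82 and 28 to 23. CCNB1 held 2 CCAAT, at 87 to 83 and 55 to 51, and neither hexamer. The first bases of these genes in the expression table, 69167010 for CCNB1 and 121823933 for CCNA2, lie inside the windows. By those bounds both CCAAT of CCNB1 and the CTTGAA at 28 to 23 of CCNA2 are within the gene. The CCND3 start shown held 1 CCAAT, a further start held 1 and the other none. CCNE1, CDK4 and CDK6 held no match, and the E2F letters were in none of the 9 windows. Over 35116 promoters of the same length 32.0% held CCAAT, 9.53% held it 2 times or more, 20.9% held a hexamer, 3.83% held 2 or more hexamers and 2.79% held an E2F form. A match is a description of letters, not of a bound site, and no match says only that these letters are not in the window.

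The study's own CDK6 primers mark the part of that transcript it amplified, and are shown because the kinase's level did not pass the test here. The forward primer lies in coding exon 4 of 8, on chromosome 7 from 92725627 to 92725647 of GRCh38, while the reverse primer crosses from exon 5 (92671426 to 92671427) to exon 6 (92623067 to 92623086), and has no unbroken match on chromosome 7. Together they span 152 bases of spliced transcript. The exon numbers are those of 1 annotated transcript. Of 5 annotated CDK6 transcripts the forward primer matched 3 and the reverse primer 2.
CDK6 forward: ccagatggctctaacctcagt
CDK6 reverse: aacttccacgaaaaagaggctt

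Among the D-type cyclins, which carry growth signals to CDK4 and CDK6, CCND1 and CCND2 rose and CCND3 did not pass the test. CCND1 (cyclin D1; chromosome 11 from 69641087 to 69654474, as in the table on GRCh38) had 8.56 and 7.36 FPKM in TF1-BA and 11.5 and 12.4 in TF1-BAR. Both resistant libraries stood above both sensitive ones, at 7.96 ± 0.847 against 11.98 ± 0.634 (SD, n = 2 each). The log2 fold change was 0.56 (SE 0.1002, 95% interval 0.31 to 0.82, limma adjusted p = 0.02). These values rest on 746 and 550 recovered fragments in TF1-BA and 878 and 965 in TF1-BAR.

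CCND2 (cyclin D2; chromosome 12 from 4273772 to 4305350) had 9.54 and 8.73 FPKM in TF1-BA and 12.5 and 13.7 in TF1-BAR. Again the lines did not overlap, at 9.13 ± 0.575 against 13.1 ± 0.867 (SD, n = 2 each). The log2 fold change was 0.50 (SE 0.0882, 95% interval 0.27 to 0.72, limma adjusted p = 0.0199). CCND3 (cyclin D3; chromosome 6 from 41934933 to 42050357), the most abundant D-type cyclin in these cells, had 56.5 and 53.8 FPKM against 57.7 and 66.8. Its TF1-BAR values lay above both TF1-BA values, yet 1 of them by little, and the log2 fold change of 0.17 (95% interval -0.059 to 0.40, limma adjusted p = 0.212) did not pass.

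The make-up of the D-type pool was also compared within each library, where library size cancels. CCND3 gave 75.7 and 77.0% of the summed D-type FPKM in TF1-BA and 70.6 and 71.9% in TF1-BAR. CCND1 gave 11.5 and 10.5% against 14.1 and 13.4%, and CCND2 gave 12.8 and 12.5% against 15.3 and 14.7%. None of the 3 shares overlapped between the lines, and each had a two-sided exact permutation p = 0.333, the smallest that 2 libraries against 2 can give. The summed D-type FPKM was 74.6 and 69.9 against 81.8 and 92.9.

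**Figure D2:**
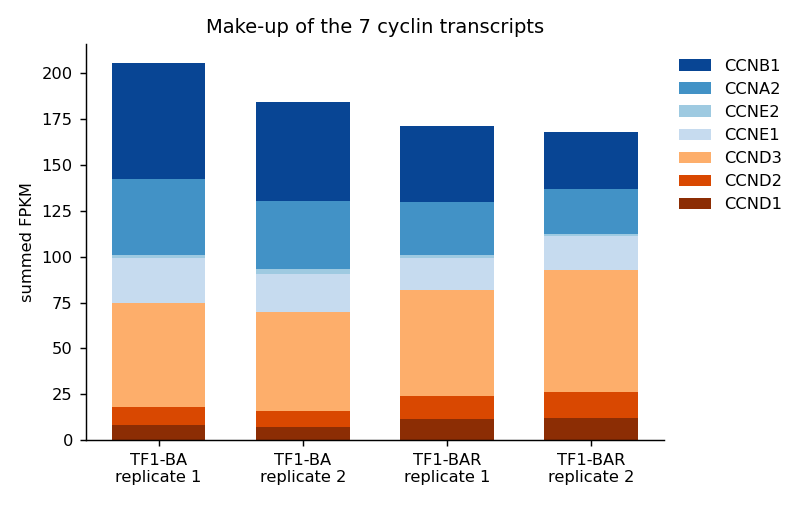
Summed FPKM of the 7 cyclins in each library, stacked by gene. The D-type part was 36.3 and 38.0% in TF1-BA and 47.8 and 55.4% in TF1-BAR.

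Of the E-type cyclins, the partners of CDK2 at the entry into DNA replication, CCNE2 fell in TF1-BAR and CCNE1 did not pass the test. CCNE2 (cyclin E2; chromosome 8 from 94879770 to 94896678), the least abundant of the 10 genes, had 2.02 and 2.53 FPKM in TF1-BA and 1.40 and 1.09 in TF1-BAR. The lines did not overlap, and the mean was 1.83-fold higher in the TF1-BA cells (2.27 ± 0.362 against 1.24 ± 0.219, SD, n = 2 each). The log2 fold change was -0.67 (SE 0.162, 95% interval -1.09 to -0.25, limma adjusted p = 0.0399). It rests on 160 and 172 against 97 and 77 fragments, the fewest of any of the 10, and counting error is therefore larger here.

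CCNE1 (cyclin E1; chromosome 19 from 29811898 to 29824308) had 24.4 and 20.8 FPKM against 17.6 and 18.0. Neither line's values reached the other's, but the log2 fold change of -0.33 (95% interval -0.57 to -0.088, limma adjusted p = 0.0587) lay just outside the threshold and was called under 4 of 15 alternative settings. Within a library CCNE1 was 12.1 and 8.23 times CCNE2 in TF1-BA and 12.6 and 16.5 times in TF1-BAR. On the log2 scale that ratio was 3.59 and 3.04 against 3.65 and 4.05 (two-sided exact permutation p = 0.333, the smallest possible).

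CCNA2 and CCNB1, the cyclins of replication and mitosis, both fell. CCNA2 (cyclin A2; chromosome 4 from 121816444 to 121823933) had 41.2 and 37.0 FPKM in TF1-BA and 28.8 and 24.8 in TF1-BAR. The lines did not overlap, at 39.1 ± 2.97 against 26.8 ± 2.87 (SD, n = 2 each). The log2 fold change was -0.54 (SE 0.102, 95% interval -0.80 to -0.27, limma adjusted p = 0.0231).

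CCNB1 (cyclin B1; chromosome 5 from 69167010 to 69178245), the regulatory partner of CDK1, had 63.2 and 53.9 FPKM against 41.6 and 30.9. It had the highest mean level of the 10 in TF1-BA, and the lines did not overlap. The mean was 1.62-fold higher in the TF1-BA cells, with a log2 fold change of -0.70 (SE 0.162, 95% interval -1.11 to -0.28, limma adjusted p = 0.0362). The TF1-BAR libraries differed from each other more than for any other gene of the 10, with 1676 and 1271 fragments. Sums over cyclins, chosen after the values were seen, gave 131 and 114 FPKM for CCNE1, CCNE2, CCNA2 and CCNB1 in TF1-BA and 89.4 and 74.8 in TF1-BAR.

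The kinase subunits did not pass. CDK2 (chromosome 12 from 55966769 to 55972784), the partner of cyclins E and A, had 8.21 and 7.44 FPKM against 8.15 and 8.45, with a log2 fold change of 0.081 (95% interval -0.14 to 0.30, limma adjusted p = 0.506). CDK4 (chromosome 12 from 57747727 to 57756013), a partner of D-type cyclins, had 20.6 and 22.1 FPKM against 21.7 and 22.2, with a log2 fold change of 0.040 (95% interval -0.14 to 0.22, limma adjusted p = 0.694). CDK6 (chromosome 7 from 92604921 to 92836594), the other such partner, had 16.0 and 14.8 FPKM against 15.7 and 14.2, with a log2 fold change of -0.042 (95% interval -0.27 to 0.18, limma adjusted p = 0.747). The lines overlapped for all 3, and the intervals leave room for log2 changes of up to 0.30 in size.

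The 3 kinases summed to 44.9 and 44.3 FPKM in TF1-BA and 45.6 and 44.8 in TF1-BAR. The log2 ratio of CDK4 to CDK6 within a library was 0.36 and 0.58 against 0.47 and 0.65 (two-sided exact permutation p = 0.667). CDK4 was thus above CDK6 in every library.

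**Figure D3:**
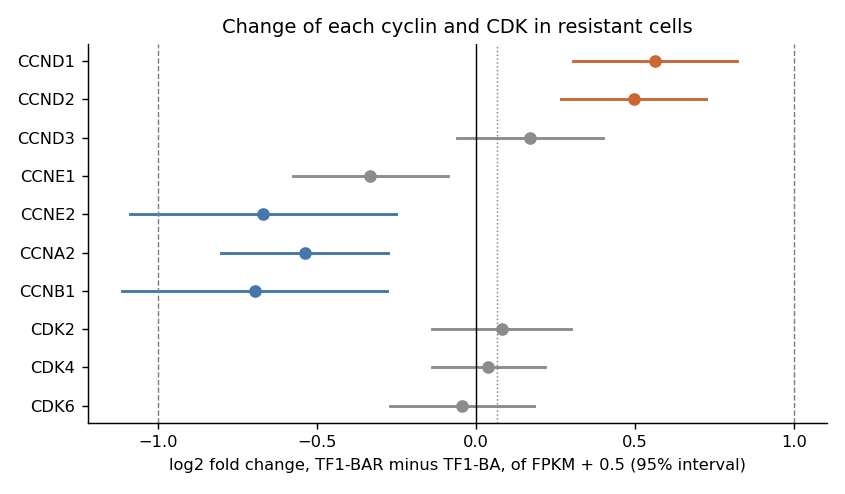
Log2 fold change (TF1-BAR minus TF1-BA) of the 10 genes with its 95% interval from limma, and dashed lines at a change of 1 in size. CCND1 and CCND2 lie above 0 and CCNE2, CCNA2 and CCNB1 below it with an adjusted p under 0.05, while the intervals of CCND3, CDK2, CDK4 and CDK6 cross 0.

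FPKM is per length, so levels of different genes can be ordered. From high to low the mean FPKM of the TF1-BA cells ran CCNB1, CCND3, CCNA2, CCNE1, CDK4, CDK6, CCND2, CCND1, CDK2 and CCNE2. In that order the values of neighbours overlapped for CCNB1 and CCND3, for CCNE1 and CDK4, and for CCND1 and CDK2. In the TF1-BAR cells the order ran CCND3, CCNB1, CCNA2, CDK4, CCNE1, CDK6, CCND2, CCND1, CDK2 and CCNE2, and no neighbours overlapped.

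The calls depended on the settings and on single libraries. With no filter on low values 0 of the 10 genes passed in limma (6 at an unadjusted p under 0.05) and without the trend only CCND1 and CCND2 passed, while leaving out TF1-BA replicate 1, TF1-BA replicate 2 or TF1-BAR replicate 2 left 0 and leaving out TF1-BAR replicate 1 left CCND2, CCNA2 and CCNB1. At an unadjusted p under 0.05, 5 to 7 of the 10 genes passed under every alternative. No alternative reversed the direction of any of the 7 cyclins.

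**Figure D4:**
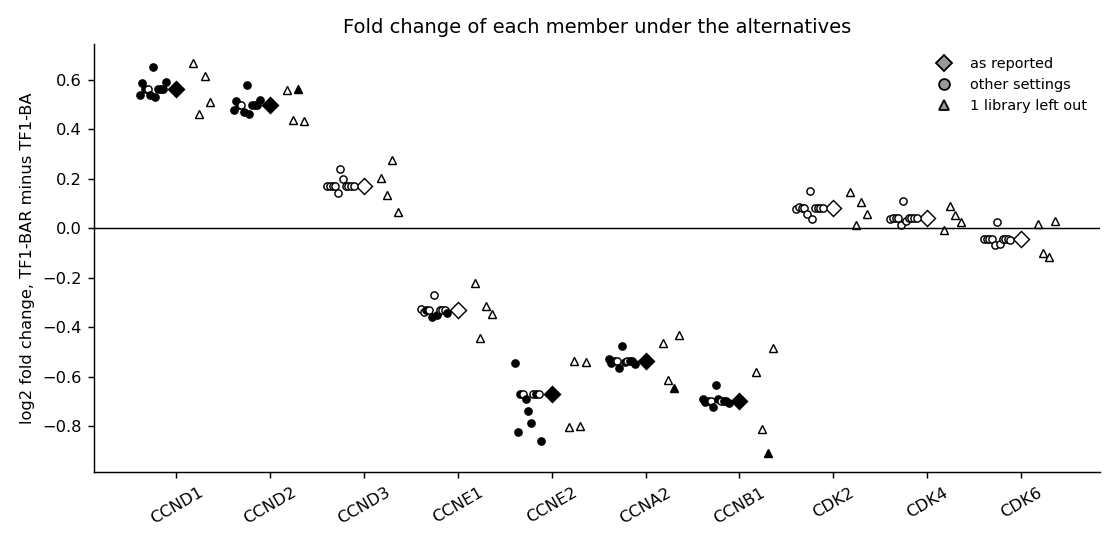
Log2 fold change of each of the 10 genes as reported (diamond), under other settings (circles) and with 1 library left out (triangles), filled where the adjusted p was under 0.05. The signs of the 7 cyclins are the same throughout, and the values for CDK4 and CDK6 fall on both sides of 0.

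Genes that overlap a member bear on its count, since the strand of counting is not given in the sources used here. CCNE2 overlaps INTS8 on the opposite strand, and INTS8 itself fell (log2 fold change -0.31, limma adjusted p = 0.0312, 1781 and 1541 against 1247 and 1277 fragments), with NDUFAF6 also overlapping. Over the 15 alternatives the adjusted p of INTS8 ran from 0.00731 to 0.195, and the call was lost with any 1 library left out. The part of INTS8 in the CCNE2 value was not tested. CDK4 overlaps TSPAN31, with 214 to 238 fragments, and the gene of ENSG00000139266, listed as 9-Mar, a symbol turned into a date. CDK2 overlaps PMEL, which had 15 to 23 fragments, lay below the filter and was not tested. CCND1 overlaps ORAOV1, and CCNA2 overlaps EXOSC9. Apart from INTS8 the overlapping genes that were tested were not called, though ORAOV1 was in limma voom on the recovered fragments (adjusted p = 0.0479). The rows AL513008.1 in CCND3, AC087752.4 and AC087752.1 in CCNE2, and RNU6-10P and AC002454.1 in CDK6 held at most 8 fragments in any library. The antisense rows CCND2-AS1 and CCND2-AS2 held at most 9 fragments, and the pseudogene row CCND3P1 held 0.

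The partners and regulators of the 10 genes came from lists chosen with earlier results known, and a list is described by its counts and median beside the median log2 fold change of 0.066 over all genes tested and the 26.9% of them that passed (16.3% higher, 10.5% lower). Of 17 other cyclins 15 were tested, with 1 higher and 5 lower and a median of -0.11. CCNB2, the second mitotic B-type cyclin, fell by 0.98 on the log2 scale (limma adjusted p = 0.00394), and CCNG2, a cyclin linked to cell cycle arrest, and CCNF fell by 0.59 and 0.38. CCNL2, a cyclin linked to splicing, rose by 0.54.

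Of 15 other cyclin-dependent kinases 13 were tested, with 1 higher and 1 lower and a median of 0.16. CDK1, the mitotic kinase and partner of cyclin B, fell from 41.4 and 35.7 FPKM to 15.0 and 11.9, a log2 fold change of -1.49 (limma adjusted p = 0.00595) past both thresholds. It lies on chromosome 10, whose tested genes had a median of -0.35, and the part of that in the value was not tested. CDK13, a kinase of transcription, rose by 0.33 (limma adjusted p = 0.0397).

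All 8 CDK inhibitors were tested, with 1 higher and 4 lower and a median of -0.32. CDKN2B (p15), which blocks CDK4 and CDK6, fell by 1.30 on the log2 scale (limma adjusted p = 0.0043), and CDKN3, CDKN1B (p27) and CDKN2C (p18) fell by 0.47, 0.45 and 0.34. CDKN2D (p19) rose by 0.70. CDKN1A (p21) at -0.30, CDKN2A at -0.24 and CDKN1C at 0.25 did not pass.

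Of 13 RB and E2F genes 12 were tested, with 7 higher and 0 lower and a median of 0.36. E2F1 and E2F2, both activating E2Fs, rose by 0.79 and 0.72, TFDP2, a dimer partner of E2F proteins, by 0.58, and E2F6, a repressing E2F, by 0.52. The list thus holds activating and repressing members among those that rose, and RB1, named outside the rule, at -0.21 (limma adjusted p = 0.129) did not pass. E2F1 lies on chromosome 20, whose tested genes had a median of 0.39, and the part of that in the value was not tested.

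Of 10 factors that activate or restrain the kinases 2 were higher and 1 lower (median 0.085), with CKS2, a binding partner of the kinases, down by 0.45 and CDC25B, a phosphatase that activates them, and CDC37, a kinase chaperone, up by 0.32 and 0.22. CDC25B lies on chromosome 20, whose median of 0.39 is above its own change. Of 12 genes of cyclin degradation 11 were tested, with 0 higher and 2 lower (median 0.090), SKP1 by 0.55 and FBXO4 by 0.39, both parts of ubiquitin ligases. Of 12 proliferation markers 1 was higher and 4 lower (median -0.14), MKI67 by 0.87, RRM2 by 0.80, BUB1 by 0.72 and PLK1 by 0.49. PCNA, named after its value was seen, rose by 0.38, and it lies on chromosome 20, while MKI67 lies on chromosome 10. Leaving out either TF1-BA library left at most 1 call in any of the 7 lists, leaving out TF1-BAR replicate 2 at most 3, and testing with no filter on low values at most 2.

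**Figure D5:**
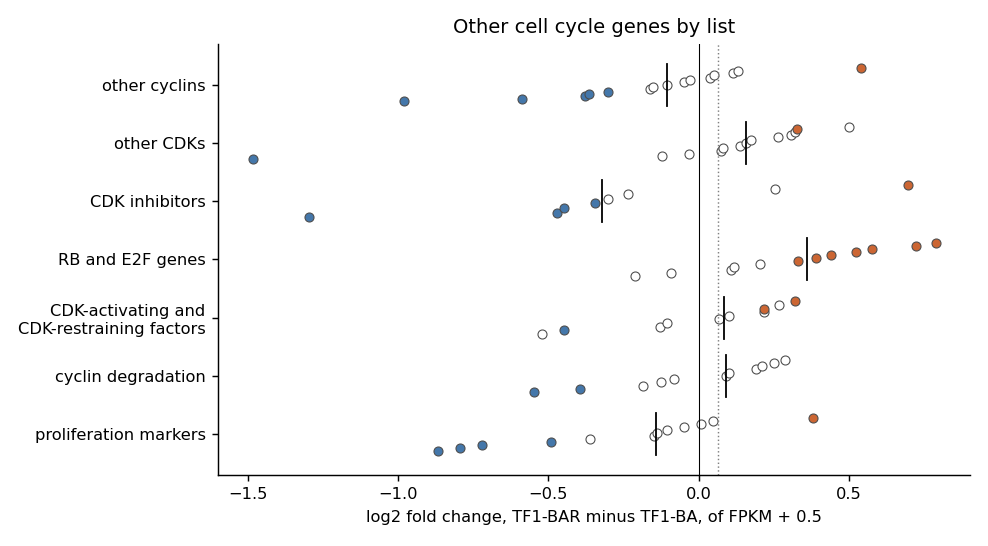
Log2 fold change (TF1-BAR minus TF1-BA) of each tested gene in 7 lists, coloured where the adjusted p was under 0.05, with a dotted line at the median of all tested genes (0.066). The RB and E2F list has 7 genes coloured as higher and 0 as lower, and the CDK inhibitors have 1 and 4.

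The libraries matched their labelled cell type in most markers. Of 12 progenitor markers of the TF1 line 11 passed the filter (5 higher, 0 lower, median 0.27), and MPO had 9 to 31 fragments. Of those higher in TF1-BAR, 2 passed both thresholds, CD34 and KIT, with log2 fold changes of 1.17 and 1.12. These are larger in size than the change of any of the 10 genes. Of 10 markers of other cell types 9 had a row, with a summed 46.2 and 48.2 FPKM in TF1-BA against 33.8 and 36.6 in TF1-BAR, 1 called higher and 1 lower, and MS4A1 was not analysed here. CD3E, NCAM1 and COL1A2 were at or under 3 fragments in every library and EPCAM at 4 or fewer, while CD3D had 322 and 297 fragments against 84 and 95 and PECAM1 had 2822 to 3277, and their part in the results was not tested. The chromosomes of the 10 genes had median log2 fold changes of -0.013 to 0.11. Replicates correlated at 0.983 and 0.979 in log2 FPKM and libraries of different lines at 0.946 to 0.956. The depth was 15465497 to 18042299 recovered fragments a library.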

How the data were processed

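RNA of 2 TF1-BA and 2 TF1-BAR libraries was sequenced for the study, and the labels gave the line and the replicate number of each. Per the submitters' processing notes, reads were mapped to GRCh38 with TopHat2 2.0.13 and quantified with Cufflinks and Cuffdiff 2.2.0, and the study's methods name DESeq2 for its own test. The deposited values are FPKM per gene and library, without log transformation, and the annotation release is not given in the sources used here. The lines were tested in R 4.3.3 by limma 3.58.1, letting the spread follow the mean level, using log2(FPKM + 0.5) of 15519 genes whose mean reached 0.5 FPKM, two-sided, with Benjamini-Hochberg adjustment over all of them. The script was tested on simulated data.

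Fragments were recovered by a search for lengths and library sizes that make a gene's values whole in all 4 libraries, within 0.002 of a whole number. Of 30853 rows above 0, 14193 were whole at the annotated length and 16659 at a fitted length. With wrong library sizes 11 of 300 genes were whole. Those 300 were drawn only from genes with many fragments in every library. The rows above 0 also hold low ones, which fit some length more easily, so the shares are not like for like. Fragment numbers cover counting error only.

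The members and lists were chosen with earlier results of these data known. The rule for named genes took all 10 members, all CDK inhibitors, rows that overlap a member or carry its name, and from each of the 6 other lists of cell cycle genes up to 4 passing genes with the largest change. RB1 and PCNA were named outside it, and the markers of cell type only in the check of the label. Of the 15 alternatives 1, limma voom on the recovered fragments, was chosen after seeing the data.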

Additional observations from a re-analysis of the deposited data

How the results depend on the processing

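The 15 alternatives gave 150 values for the 10 members, of which 116 kept their direction and side of the threshold, 26 lost the threshold, 4 gained it and 4 changed sign. The sign changes were CDK4 without TF1-BA replicate 1 (-0.0081) and CDK6 rescaled to TPM (0.024), without TF1-BA replicate 1 (0.016) and without TF1-BAR replicate 2 (0.031). Leaving out 1 library gave -0.0081 to 0.088 for CDK4 and -0.12 to 0.031 for CDK6. For 36 other genes named (27 from the lists by the rule, 7 overlapping genes that passed the filter, RB1 and PCNA), 414 of 539 values kept direction and side, 116 lost the threshold, 3 gained it and 6 changed sign, none of them called: EXOSC9 under upper-quartile scaling (-0.016) and quantile normalization (-0.033), TSPAN31 rescaled to TPM (0.025), and, over the fits with 1 library left out, EXOSC9 (-0.15 to 0.16) and TSPAN31 (-0.12 to 0.048).

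With no filter 0 members passed (0 higher, 0 lower), while 6 had an unadjusted p under 0.05 in limma, and the lists had 1 other cyclin, 0 other kinases, 2 CDK inhibitors, 1 RB and E2F gene, 0 activating or restraining factors, 0 degradation genes and 2 proliferation markers; 1232 of 32673 genes passed. Without the trend 2 members passed (0 lower), with 1 other kinase, 3 CDK inhibitors, 0 factors and 0 degradation genes. Quantile normalization left 1 other kinase. In limma voom 4 other kinases, 5 factors and 4 degradation genes passed. With 1 library left out the range was 0 to 3 members (0 to 1 higher, 0 to 2 lower), 0 to 4 other cyclins, 0 to 1 other kinases, 0 to 4 CDK inhibitors, 0 to 6 RB and E2F genes, 0 to 2 factors, 0 to 1 degradation genes and 0 to 4 proliferation markers, and the lone library was assumed to vary like the other line. The fit with no filter held more genes, and the fits with 1 library left out held fewer libraries. The cause of these changes was not tested.

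Whether same-numbered libraries shared more than a number is not given in the sources used here. Over all tested genes their deviations correlated at 0.0646, which does not settle it for single genes. With the replicate block 4 members passed, and 1 other kinase and 1 factor. The limma adjusted p was then 0.0167 for CCNA2 and 0.0156 for CCNB1, lower than without the block. It was 0.0338 for CCND1 and 0.0347 for CCND2, higher than without it, and CCNE2 no longer passed (limma adjusted p = 0.0642). Depth limits CCNE2 most, at 77 to 172 fragments a library.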
